A study of Mus musculus with 8 samples.

Results

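The transcripts of 10 core cardiac transcription factor genes (*Gata4*, *Gata5*, *Gata6*, *Nkx2-5*, *Tbx2*, *Tbx5*, *Tbx20*, *Hand1*, *Hand2* and *Zfpm2*) were examined in fetal mouse hearts with and without the type 3 deiodinase. DIO3 is the enzyme that inactivates thyroid hormones, and its loss exposes the fetus to an excess of hormone. The genes were chosen by name, all 10 were found among the 26590 gene symbols of the deposited table, and they carry 18 of its 51414 transcript rows. The hearts came from 4 *Dio3+/+* and 4 *Dio3-/-* fetuses on a C57BL/6J background, each heart from an individual mouse, and the labels give no treatment. The null allele was made on a 129/SVJ background and then backcrossed, and *Dio3-/-* fetuses carry it in every tissue, so that the heart cannot be separated from the rest of the fetus in this model. All 8 sample titles and the design text give embryonic day E13.5. For *Dio3-/-* hearts 3 and 4 the age field reads E18.5, and the methods of the study give E14.5.

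These factors form the network that specifies heart muscle and shapes its chambers. NKX2-5, a homeodomain protein, the zinc finger proteins GATA4, GATA5 and GATA6 and the T-box proteins TBX5 and TBX20 bind one another and occupy many of the same enhancers in the embryonic heart. HAND1 and HAND2 are basic helix-loop-helix proteins of the ventricles, TBX2 keeps chamber genes silent in the atrioventricular canal and outflow tract, and FOG2, encoded by *Zfpm2*, binds the GATA factors and modulates them. Loss or reduced dosage of most of them causes septal or chamber defects in mice, and the comparison asks whether their transcripts differ in *Dio3-/-* hearts.

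The table gives the mean of each genotype in RPKM (reads per kilobase of transcript, scaled to the mapped reads) and the coefficient of variation (CV, the SD divided by the mean) over its 4 hearts, and no value of a single heart and no library depth. Where limits for single hearts are given, they follow from the mean and the SD of 4 values, none of which can lie more than 1.5 SD from the mean. The *Dio3* transcript could not check the labels, with 0.35 RPKM (CV 1.23) in *Dio3+/+* and 0.13 RPKM (CV 0.76) in *Dio3-/-* hearts. The design text calls the hearts male, but *Xist*, which is transcribed from the inactive X, had means of 35.64 RPKM (CV 0.99) and 39.97 RPKM (CV 0.55), beside 9.38 RPKM (CV 1.04) and 7.29 RPKM (CV 1.46) of the Y-linked *Eif2s3y*. The hearts could not be separated by sex or by labeled age, and no result could be repeated without a heart.

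The levels of the 10 genes spanned from 7.58 to 158.10 RPKM in *Dio3+/+* hearts and from 6.24 to 200.63 RPKM in *Dio3-/-* hearts, and their order was the same in both genotypes. *Tbx20* was the highest, followed by *Gata4*, *Nkx2-5*, *Gata6*, *Hand2*, *Tbx5*, *Zfpm2*, *Hand1*, *Gata5* and *Tbx2*. *Tbx20* had a higher mean over both genotypes than 98.6% of all gene symbols, and *Tbx2* than 67.0%. In *Dio3+/+* hearts, the successive genes from *Gata4* to *Nkx2-5*, *Gata6* and *Hand2* each differed from the next by less than the sum of both SDs, as did *Zfpm2* from *Hand1* and *Gata5* from *Tbx2*. In *Dio3-/-* hearts, where the SDs were smaller, *Gata4* and *Nkx2-5* and again *Zfpm2* and *Hand1* were within that sum. These orders compare RPKM, which is per length of the transcript, for the highest row of each gene.

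**Figure D1:**
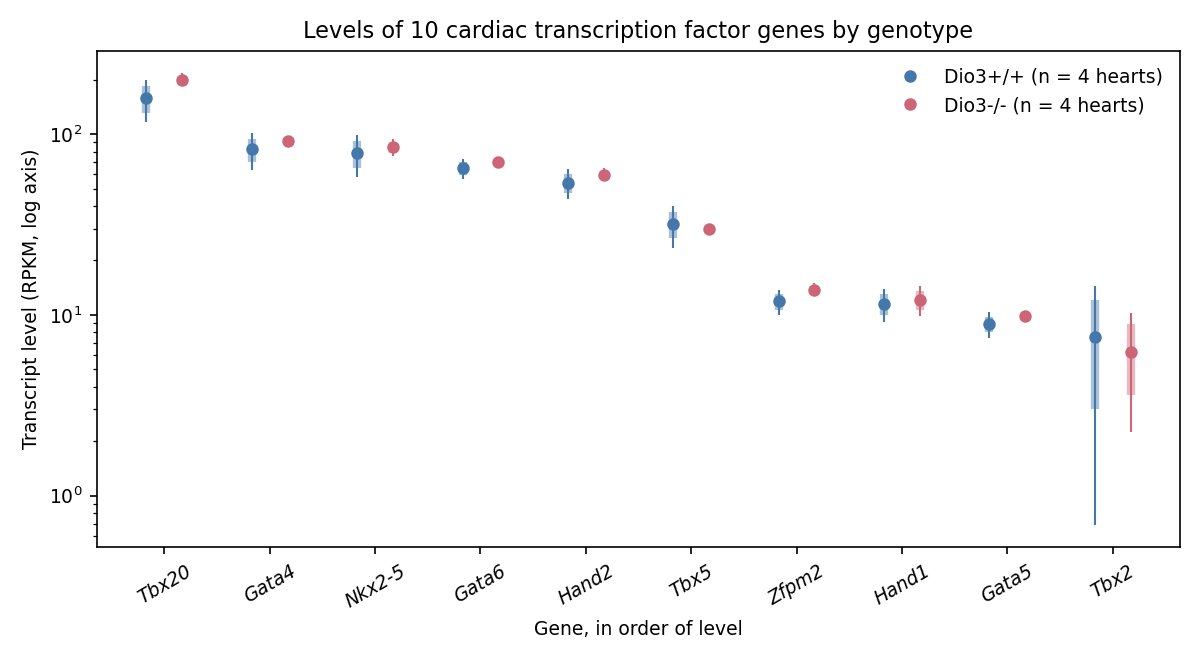
Level of each gene in RPKM on a log axis, in order of level. Points are genotype means of 4 hearts (blue, *Dio3+/+*; red, *Dio3-/-*), thick bars are 1 SD either side and thin lines are the limits within which every single heart must lie. The pair of *Tbx20*, at 158.10 and 200.63 RPKM, lies farthest apart on this axis, and *Tbx2*, with means of 7.58 and 6.24 RPKM, has the longest bars.

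None of the 10 genes passed the test between genotypes, their adjusted *P* values ranging between 0.125 and 0.775 (limma, Benjamini-Hochberg over all tested rows). The threshold of 0.05 was passed by 2.29% of the 14657 genes tested by their highest row. None of the 18 rows of the members passed either, beside 2.15% of all rows tested. The limits for single hearts kept the genotypes apart for 0 of the 10 genes, beside 3.85% of all genes tested. At an unadjusted *P* value under 0.05, 2 of the 10 genes passed, *Tbx20* and *Zfpm2*, both with the higher mean in *Dio3-/-* hearts, against 19.7% of all genes tested in either direction. A test of unequal variances without moderation, made from the same summaries, called 0 of the 10 genes, beside 0.177% of all genes tested. With so few calls in all, that count of 0 carries little weight. The mean was higher in *Dio3-/-* hearts for 8 of the 10 genes and lower for *Tbx2* and *Tbx5*, and 63.3% of all tested genes were higher. The median log2 fold change of the 10 genes was 0.13, beside 0.04 over all genes tested. For 9 of the 10 genes, all but *Tbx2*, the 95% interval of the log2 fold change by limma lay within a 1.5-fold change either way. On the log2 scale that limit is 0.585, which *Tbx20* met barely, with an upper bound of 0.584. The intervals pool the variance of both genotypes, although their CVs differed, and no interval with unequal variances was made. In whole hearts, fewer cells of a type and less RNA per cell cannot be told apart.

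**Figure D2:**
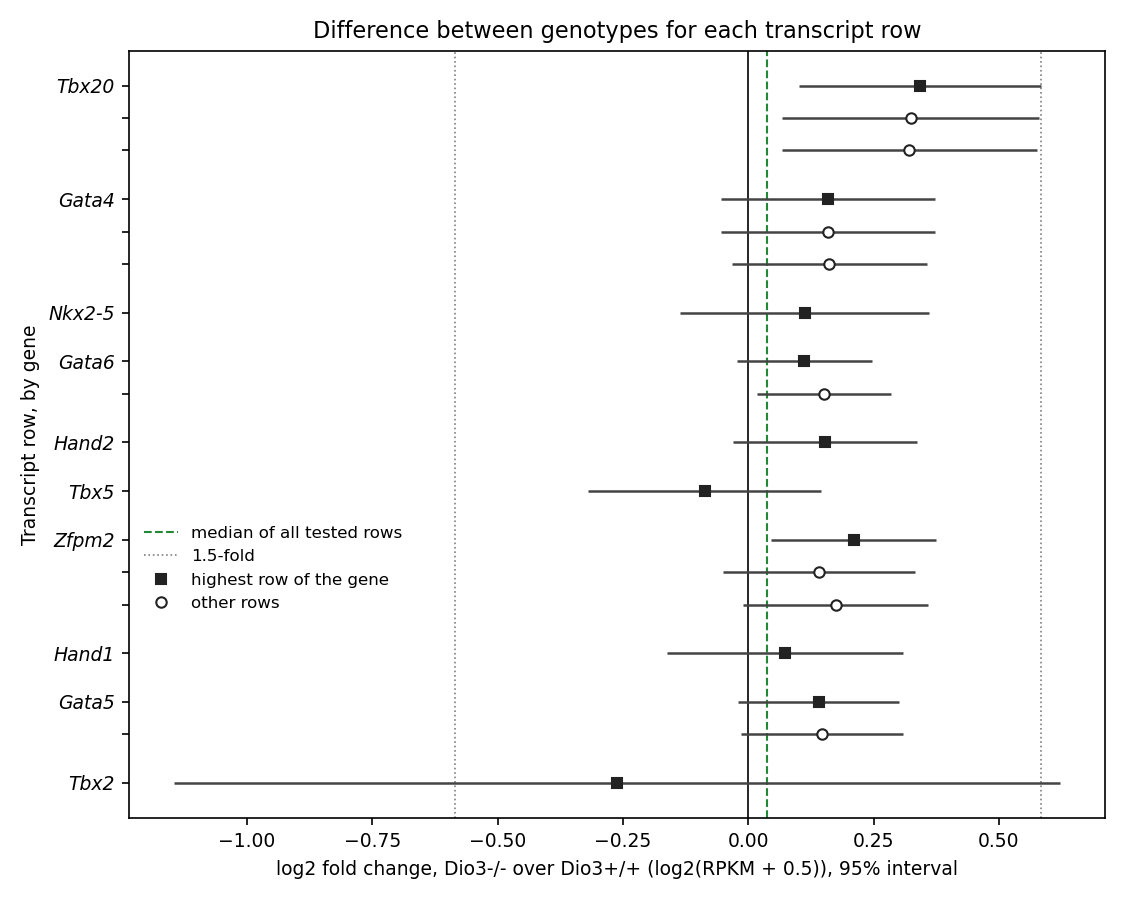
Log2 fold change of *Dio3-/-* over *Dio3+/+* hearts for the 18 transcript rows, grouped by gene, with 95% intervals from limma. Squares mark the highest row of each gene, circles its other rows, the dashed line the median of all tested rows (0.04) and dotted lines a 1.5-fold change. All 3 *Tbx20* rows lie from 0.32 to 0.34, and *Tbx2* has the widest interval, from −1.15 to 0.62.

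*Tbx20*, which drives growth of the chamber myocardium and represses *Tbx2* there, had the largest positive difference. Its highest row had 158.10 ± 26.9 RPKM (SD, n = 4) in *Dio3+/+* hearts and 200.63 ± 10.03 RPKM (SD, n = 4) in those of *Dio3-/-* fetuses, 1.27 times as much. Each *Dio3+/+* heart must lie between 117 and 199.6 RPKM and each *Dio3-/-* heart between 184 and 217 RPKM, so the highest *Dio3+/+* heart may reach into the range of the *Dio3-/-* hearts. The log2 fold change was 0.34 (SE 0.11, 95% interval 0.10 to 0.58, adjusted *P* = 0.125 by limma). Over the alternatives that were run its adjusted *P* value ranged between 0.098 and 0.297. By the highest row of each gene, the difference between the means exceeded the sum of both SDs for *Tbx20* and *Zfpm2*. These are 2 of the 10 genes, beside 15.5% of all genes tested. The other rows of *Tbx20* and *Zfpm2* did not exceed that sum, and the other row of *Gata6* did. The other rows of *Tbx20*, at 109.75 and 57.62 RPKM in *Dio3+/+* hearts, had log2 fold changes of 0.32 each. The rows of a gene are transcripts of 1 locus that can share reads, and they are not independent.

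RefSeq promoter entries (GRCm38.p6) matched 4 of the 10 genes, *Gata5*, *Hand2*, *Nkx2-5* and *Tbx20*. The 250 bases before the start of *Tbx20*, the gene with the largest positive difference, and of *Nkx2-5* and *Hand2*, which stand for the other families at high levels, are shown 5′ to 3′ on the strand of the gene. Capitals mark matches on either strand to the binding letters of the network's own families, the GATA motif (AGATAA, or the same letters with T in the first or G in the last place) and the E-box of helix-loop-helix proteins (CANNTG). No marked match overlaps another in these sequences.
Tbx20, chr9:24774304-24774553, minus strand: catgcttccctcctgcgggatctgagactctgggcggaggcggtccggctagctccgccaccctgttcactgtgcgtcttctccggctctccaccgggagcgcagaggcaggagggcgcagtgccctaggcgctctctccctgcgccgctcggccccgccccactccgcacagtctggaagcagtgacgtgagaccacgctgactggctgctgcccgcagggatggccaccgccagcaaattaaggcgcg
Nkx2-5, chr17:26841566-26841815, minus strand: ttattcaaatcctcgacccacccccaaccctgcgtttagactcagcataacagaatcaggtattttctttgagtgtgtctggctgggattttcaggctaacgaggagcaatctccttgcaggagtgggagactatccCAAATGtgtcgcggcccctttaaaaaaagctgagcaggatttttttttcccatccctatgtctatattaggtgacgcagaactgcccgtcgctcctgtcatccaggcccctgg
Hand2, chr8:57320733-57320982, plus strand: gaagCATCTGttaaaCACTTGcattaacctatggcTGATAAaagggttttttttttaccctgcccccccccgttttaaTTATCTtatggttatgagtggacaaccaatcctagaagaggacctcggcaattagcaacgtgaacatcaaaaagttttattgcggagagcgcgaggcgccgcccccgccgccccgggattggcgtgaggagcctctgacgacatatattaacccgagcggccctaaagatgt
*Hand2* held 2 GATA matches and 2 E-boxes, *Nkx2-5* and *Gata5* held 1 E-box each, and *Tbx20* held neither. Among 27025 promoters of the same length, 27.1% held the GATA motif and 66.0% an E-box. The NK2 motif (TNAAGTG, in 10.04% of promoters), the T-box half-site (AGGTGT, in 12.0%) and the half-site of thyroid hormone receptors and other nuclear receptors (AGGTCA, in 13.8%) were in none of the 4. A match is a description of the letters and no match says only that they are not in this window.

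The GATA members did not differ detectably between genotypes. *Gata4*, which is needed for heart tube formation, septation and myocyte proliferation, had 82.27 ± 12.3 RPKM (SD, n = 4) in *Dio3+/+* hearts and 91.97 ± 3.68 RPKM (SD, n = 4) in those of *Dio3-/-* fetuses. Its log2 fold change was 0.16 (SE 0.10, 95% interval −0.05 to 0.37, adjusted *P* = 0.413 by limma). Each *Dio3+/+* heart must lie between 63.1 and 101 RPKM and each *Dio3-/-* heart between 85.8 and 98.2 RPKM, so the limits of the *Dio3-/-* hearts fall inside those of the *Dio3+/+* hearts. *Gata6*, which acts with *Gata4* in the myocardium and shapes the outflow tract, had 64.92 ± 5.19 RPKM and 70.17 ± 2.11 RPKM, and its limits overlap from 66.5 to 73.2 RPKM. Its log2 fold change was 0.11 (95% interval −0.02 to 0.25, adjusted *P* = 0.362 by limma), and that of its other row, at 11.33 RPKM in *Dio3+/+* hearts, was 0.15. *Gata5*, the GATA gene of the endocardium, had 8.90 ± 0.890 RPKM and 9.86 ± 0.394 RPKM, and the change on the log2 scale was 0.14 (95% interval −0.02 to 0.30, adjusted *P* = 0.336 by limma). Single hearts must lie between 7.49 and 10.3 RPKM in *Dio3+/+* and between 9.19 and 10.5 RPKM in *Dio3-/-* hearts, so the groups may overlap. The 2 other rows of *Gata4* had log2 differences of 0.16 each and the other row of *Gata5* of 0.15. By the authors' means, *Gata4* made up 52.7% of the sum of *Gata4*, *Gata5* and *Gata6* in *Dio3+/+* and 53.5% in *Dio3-/-* hearts, *Gata6* 41.6% and 40.8%, and *Gata5* 5.70% and 5.73%.

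*Zfpm2*, the cofactor of the GATA proteins that is needed for coronary vessels and septation, had 11.87 ± 1.19 RPKM in *Dio3+/+* hearts and 13.81 ± 0.691 RPKM in those of *Dio3-/-* fetuses. The log2 fold change was 0.21 (SE 0.07, 95% interval 0.05 to 0.37, adjusted *P* = 0.158 by limma). Single hearts must lie between 9.99 and 13.7 RPKM in *Dio3+/+* and between 12.7 and 15.0 RPKM in *Dio3-/-* hearts. The groups may therefore overlap from 12.7 to 13.7 RPKM. The other rows of *Zfpm2*, at 4.56 and 3.23 RPKM in *Dio3+/+* hearts, had log2 fold changes of 0.14 and 0.17.

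*Nkx2-5*, an early marker of cardiac progenitors and later a regulator of conduction and chamber genes, had 78.63 ± 13.4 RPKM in *Dio3+/+* hearts and 85.04 ± 5.95 RPKM in those of *Dio3-/-* fetuses. Its log2 fold change was 0.11 (SE 0.11, 95% interval −0.14 to 0.36, adjusted *P* = 0.639 by limma). The limits of the *Dio3-/-* hearts, 75.5 to 94.6 RPKM, fall inside those of the *Dio3+/+* hearts, 58.0 to 99.3 RPKM.

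*Tbx5*, the T-box gene of the atria, the left ventricle and septation, was the only member with a mean lower in *Dio3-/-* hearts besides *Tbx2*. It had 31.89 ± 5.42 RPKM in *Dio3+/+* hearts and 30 ± 0.900 RPKM in those of *Dio3-/-* fetuses. The change on the log2 scale was −0.09 (SE 0.10, 95% interval −0.32 to 0.15, adjusted *P* = 0.709 by limma). The *Dio3-/-* hearts must lie between 28.4 and 31.6 RPKM, and the *Dio3+/+* hearts between 23.5 and 40.3 RPKM, with at least 9.11 RPKM between the lowest and the highest. *Tbx20* and *Tbx5* thus had estimates of opposite sign whose 95% intervals overlap from 0.10 to 0.15, and the difference between the genes was not tested.

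*Tbx2* could not be placed with the same precision. It had 7.58 ± 4.55 RPKM in *Dio3+/+* hearts and 6.24 ± 2.62 RPKM in those of *Dio3-/-* fetuses. The change on the log2 scale was −0.26 (SE 0.39, 95% interval −1.15 to 0.62, adjusted *P* = 0.775 by limma). A single heart may lie anywhere from 0.692 to 14.5 RPKM in *Dio3+/+* and from 2.25 to 10.2 RPKM in *Dio3-/-* hearts. The lowest and the highest heart were at least 7.81 RPKM apart in *Dio3+/+* and at least 4.48 RPKM apart in *Dio3-/-* hearts, more than the difference of 1.34 RPKM between the genotypes. The interval holds a 1.5-fold change in either direction, so such a change was not detectable for this gene. Of the sum of *Tbx2*, *Tbx5* and *Tbx20*, by the authors' means, *Tbx20* made up 80.0% in *Dio3+/+* and 84.7% in *Dio3-/-* hearts, *Tbx5* 16.1% and 12.7%, and *Tbx2* 3.84% and 2.63%, shares that moved further than those of the GATA genes. No test was made of these shares.

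The HAND members differed by less than the spread between hearts. *Hand2*, which is needed for the right ventricle and for cells added from the second heart field, had 53.72 ± 6.45 RPKM in *Dio3+/+* hearts and 59.78 ± 2.99 RPKM in those of *Dio3-/-* fetuses. The change on the log2 scale was 0.15 (95% interval −0.03 to 0.34, adjusted *P* = 0.358 by limma). *Hand1*, a gene of the left ventricle and its outer curvature, had 11.51 ± 1.496 RPKM and 12.14 ± 1.46 RPKM, and the change on the log2 scale was 0.07 (95% interval −0.16 to 0.31, adjusted *P* = 0.760 by limma). Single hearts must lie between 43.6 and 63.8 RPKM of *Hand2* in *Dio3+/+* and between 54.8 and 64.7 RPKM in *Dio3-/-* hearts. For *Hand1* the limits were 9.17 to 13.8 RPKM and 9.86 to 14.4 RPKM, and for both genes the groups may overlap. *Hand2* made up 82.4% of the sum of both genes in *Dio3+/+* and 83.1% in *Dio3-/-* hearts, by the authors' means.

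For each of the 10 genes the spread was wider among the *Dio3+/+* hearts than among the *Dio3-/-* hearts. The median CV of the 10 genes was 0.14 in *Dio3+/+* and 0.05 in *Dio3-/-* hearts, and the ratio of the CVs went from 1.08 for *Hand1* to 5.67 for *Tbx5*, with a median of 2.46. *Tbx5*, with CVs of 0.17 and 0.03, and *Gata4*, with 0.15 and 0.04, had the largest ratios. Among all 14657 tested genes the CV was higher in *Dio3+/+* hearts for 65.4%, and the medians were 0.09 and 0.06. Among the 8408 of them with a mean in the range of the 10 genes, it was higher for 65.9%, with medians of 0.07 and 0.05. The trait was not particular to the 10 genes. In the lists described below, the CV was higher in *Dio3+/+* hearts for 25 of 26 targets, 21 of 24 cooperating factors and 17 of 20 cofactors. The same held for 8 of 8 cushion mesenchyme, 6 of 7 cardiomyocyte and 6 of 7 endocardial and endothelial markers. It held for 8 of 12 relatives, 3 of 7 epicardial, 4 of 10 liver and 0 of 7 red cell markers. The 10 genes were measured in the same hearts and the CVs are rounded to 2 decimals, so no test was made of this difference.

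**Figure D3:**
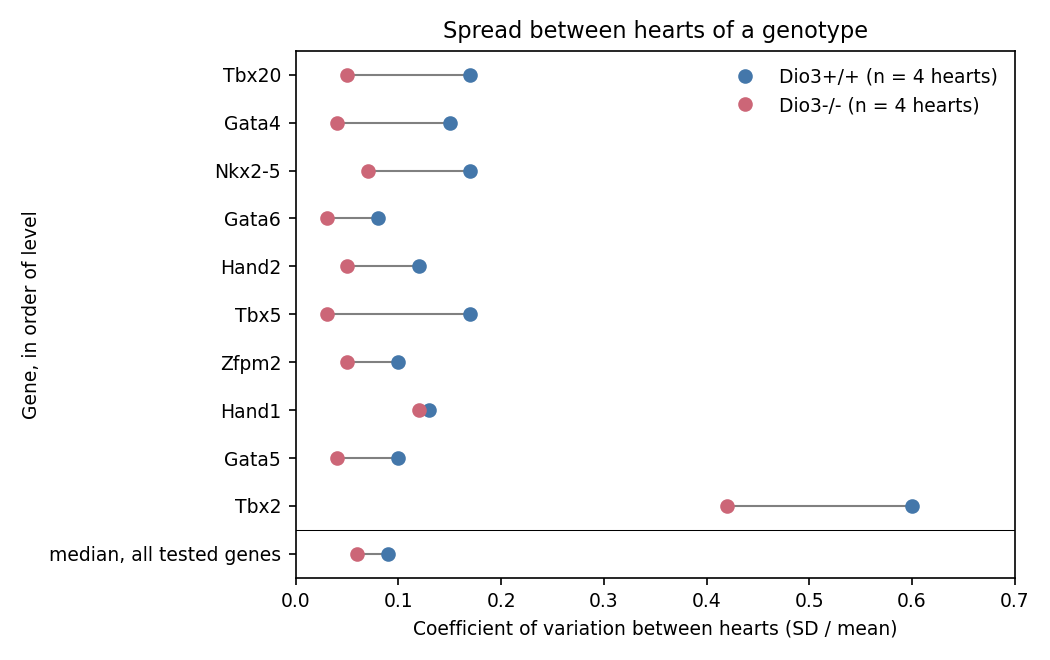
Coefficient of variation between the 4 hearts of each genotype for each gene (blue, *Dio3+/+*; red, *Dio3-/-*), with the median of all tested genes in the last line. The *Dio3+/+* value is the higher in all 10 genes, from 0.08 for *Gata6* to 0.60 for *Tbx2*.

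*Tbx2* stood apart from the other 9 genes in both genotypes, with CVs of 0.60 and 0.42, while the others reached at most 0.17 and 0.12. Of the 5949 tested genes with a mean within 2-fold of its own, 16 (0.269%, *Tbx2* included) had CVs at least as high in both genotypes. Chosen in this way after the values were seen, the other 15 hold *Myh3*, *Myog* and *Mybph* of skeletal muscle and *Ibsp* of bone. They also hold the liver genes *Apoa1*, *Serpina1a*, *Serpina1b* and *Serpina6*, and *Tsix*, *Eif2s3y* and *Ddx3y*, which are linked to the sex chromosomes. The rest are *Gdf10*, *Crabp2*, *Agtr2* and *Lrrn1*. These genes did not share a direction. *Myog* had 9.78 RPKM (CV 1.56) in *Dio3+/+* and 1.17 RPKM (CV 0.86) in *Dio3-/-* hearts, and *Apoa1* had 1.19 RPKM (CV 1.12) and 8.57 RPKM (CV 1.26). Some of the relatives of the members shared a wide spread in the *Dio3+/+* hearts, also named after their values were seen. *Tbx3*, the close relative of *Tbx2* in the conduction system, had 10.61 RPKM (CV 0.77) and 7.53 RPKM (CV 0.15), *Twist1* 16.14 RPKM (CV 0.51) and 12.09 RPKM (CV 0.08), and *Twist2* 4.4 RPKM (CV 1.25) and 1.44 RPKM (CV 0.28). *Tbx4*, the neighbor of *Tbx2* that marks limb and lung mesenchyme, had 0.83 RPKM (CV 1.10) and 0.98 RPKM (CV 1.22). The part of tissue from outside the heart in the *Tbx2* values was not tested.

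Relatives of the members were read from a list of 26 other GATA, FOG, T-box, NK2, NK3 and HAND-related genes. Of these, 12 had a row that could be tested and 14 had means of 1 RPKM or less in both genotypes. No gene of the 12 passed the test by limma, beside 2.29% of all genes tested. Below an unadjusted *P* value of 0.05 by limma there were 2, both lower in *Dio3-/-* hearts, beside 19.7% of all genes in either direction. The mean was lower in *Dio3-/-* hearts for 9 of the 12 and higher for 3, while 63.3% of all tested genes were higher. The median log2 fold change was −0.14. The highest were *Zfpm1*, which encodes FOG1, *Tbx18* of the epicardium and sinus horns, and *Tcf21* of epicardial cells and fibroblasts. *Zfpm1* had 33.09 RPKM (CV 0.09) in *Dio3+/+* and 34.14 RPKM (CV 0.07) in *Dio3-/-* hearts, *Tbx18* had 20.11 RPKM (CV 0.07) and 19.67 RPKM (CV 0.08), and *Tcf21* had 17.00 RPKM (CV 0.13) and 18.61 RPKM (CV 0.11). Their log2 fold changes of 0.04, −0.03 and 0.13 gave adjusted *P* values between 0.555 and 0.859 (limma).

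Of 26 transcription factors that act with the members, 24 were tested and 0 passed by limma, beside 2.29% of all genes tested, and the median log2 fold change was 0.04. At an unadjusted *P* value under 0.05 there were 5 (4 higher and 1 lower in *Dio3-/-* hearts), beside 19.7% of all genes, a share near that of the list. The highest of them were *Mef2a*, a MADS box factor of muscle genes, *Myocd*, the coactivator of serum response factor, and *Tead1*, the DNA-binding partner of YAP. *Myocd* had 49.90 RPKM (CV 0.17) in *Dio3+/+* and 67.05 RPKM (CV 0.04) in *Dio3-/-* hearts. The change on the log2 scale was 0.42 (95% interval 0.19 to 0.66, adjusted *P* = 0.070 by limma). Its adjusted *P* value was 0.04999 when rows with a CV above 0.5 were left out. The log2 fold change was 0.17 for *Mef2a* and 0.08 for *Tead1*, with adjusted *P* values of 0.203 and 0.406 by limma.

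Among 20 chromatin and cofactor genes that bind or modulate the members, 1 rose and 1 fell in *Dio3-/-* hearts past the threshold of limma, beside 1.91% higher and 0.382% lower of all genes tested, and the median log2 fold change was 0.05. *Smarcd3*, which encodes BAF60C, the chromatin remodeling subunit that acts with GATA4, TBX5 and NKX2-5, rose from 36.92 RPKM (CV 0.04) in *Dio3+/+* to 44.31 RPKM (CV 0.03) in *Dio3-/-* hearts. Its log2 fold change was 0.26 (95% interval 0.16 to 0.36, adjusted *P* = 0.023 by limma), and the limits for single hearts, 34.4 to 39.4 RPKM and 42.0 to 46.6 RPKM, do not overlap. *Cited2*, a coactivator needed for septation, fell from 32.04 RPKM (CV 0.08) to 25.78 RPKM (CV 0.02). Its log2 difference was −0.31 (95% interval −0.44 to −0.18, adjusted *P* = 0.034 by limma), and its limits, 27.9 to 36.1 RPKM and 24.8 to 26.8 RPKM, do not overlap either. Neither passed the unmoderated test from the summaries, where the adjusted *P* values were 0.073 and 0.203. Centring on the median log2 ratio also ended the *Smarcd3* call (adjusted *P* = 0.054 by limma). The *Cited2* call was lost without the mean-variance trend (adjusted *P* = 0.052 by limma) or with the CVs raised by 0.005 (adjusted *P* = 0.053 by limma). *Rbbp7* of the NuRD complex, *Smyd1*, a muscle histone methyltransferase, and *Hopx*, a partner of serum response factor, were the highest of the others. They had log2 fold changes of 0.04, 0.21 and 0.34 with adjusted *P* values of 0.642, 0.123 and 0.120 by limma.

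Of 26 genes widely described as cardiac targets of the members, all tested, 6 rose and 0 fell in *Dio3-/-* hearts at the same threshold by limma, beside 1.91% higher and 0.382% lower of all genes tested, and the median log2 fold change was 0.22. At an unadjusted *P* value under 0.05, 13 were higher, beside 15.2% of all genes. Among the 6 were *Myh6*, the α myosin heavy chain (log2 fold change 1.06), *Atp2a2*, the calcium pump of the sarcoplasmic reticulum (0.83), *Tnni3*, cardiac troponin I (0.75), *Ryr2*, the calcium release channel (0.59), and *Chrm2*, the muscarinic receptor of the heart (0.48). *Atp2a2* went from 433.33 RPKM (CV 0.11) to 771.29 RPKM (CV 0.06), with an adjusted *P* value of 0.0021 by limma, and *Chrm2* from 5.89 RPKM (CV 0.12) to 8.43 RPKM (CV 0.06), with 0.023 by limma. *Myh6* and *Atp2a2* are also textbook targets of thyroid hormone itself. The unmoderated test from the summaries called 2 of the 6, *Myh6* and *Atp2a2*. The targets with the highest levels did not pass by limma. *Actc1* had a log2 fold change of 0.24, *Myl2* of 0.24 and *Tnnt2* of 0.08, with adjusted *P* values of 0.267, 0.353 and 0.765. Whether the targets and the members differ in their change was not tested.

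**Figure D4:**
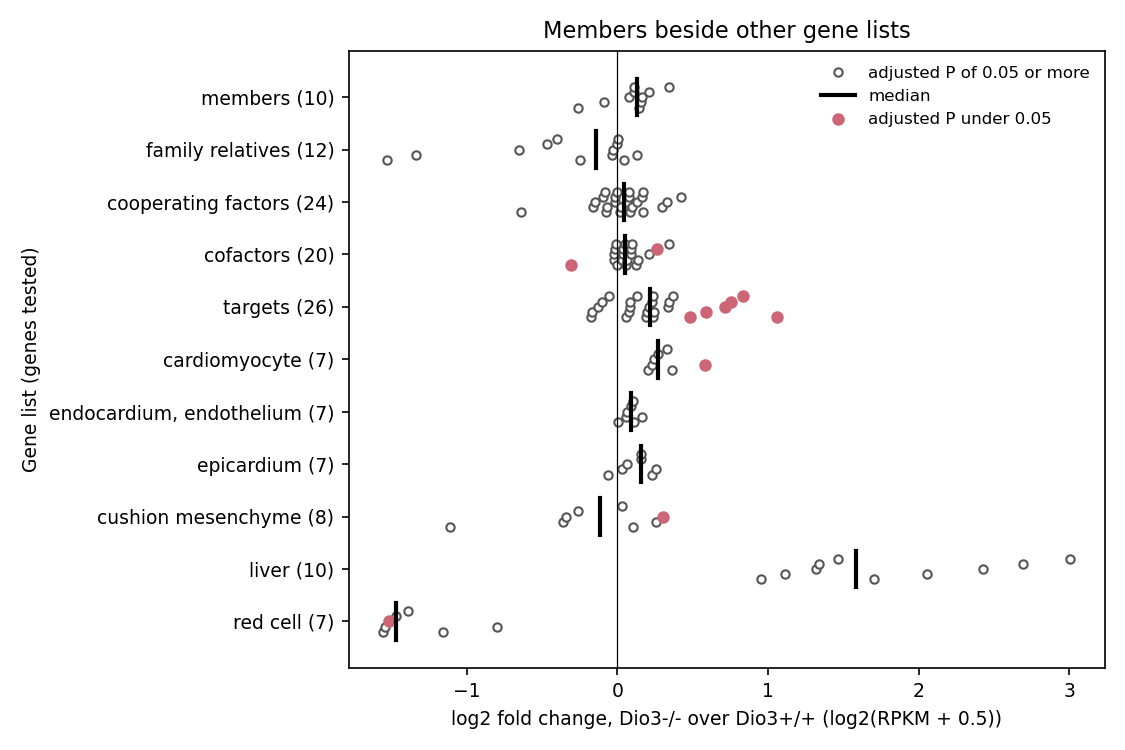
Log2 fold change of each tested gene by list (number tested in parentheses), with the median of the list as a bar. Filled points passed the threshold of 0.05 by limma. The 10 members lie from −0.26 to 0.34 with no filled point, the targets hold 6 filled points to the right of 0, and the medians of the liver and red cell lists lie farthest from 0. The lists of lung epithelium and autonomic cells, with 1 tested gene each, are not drawn.

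Markers of the cell types in and around the heart were read beside these values. All 7 markers of cardiomyocytes were present, from 62.80 to 304.29 RPKM in *Dio3+/+* hearts. All 7 had a higher mean in *Dio3-/-* hearts, with a median log2 fold change of 0.27 and 1 of the 7 (*Myoz2*) past the test by limma. Of all genes tested, 1.91% passed as higher and 0.382% as lower, and these shares stand beside the calls of each marker list. At an unadjusted *P* value under 0.05, 6 of the 7 were higher, beside 15.2% of all genes tested. The log2 fold change of 1 of the 10 members, *Tbx20*, was above that median. The 7 endocardial and endothelial markers had a median of 0.09 and the 7 epicardial markers of 0.16, with 0 past the test by limma in either list and 1 and 2 genes below an unadjusted *P* value of 0.05. Of 8 cushion mesenchyme markers, *Hapln1* rose past the threshold of limma and the median was −0.11. The mean was higher in *Dio3-/-* hearts for 4 of the 8 and lower for 4. *Prrx1* in that list, named after its values were seen, had 12.23 RPKM (CV 0.92) in *Dio3+/+* and 5.40 RPKM (CV 0.08) in *Dio3-/-* hearts. Its log2 fold change of −1.11 was the lowest of the 8 and did not pass (adjusted *P* = 0.281 by limma).

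Of these lists, the markers of liver and of red cells had the largest differences on the log2 scale. The summed means of 10 liver markers were 24.1 RPKM in hearts of *Dio3+/+* and 127 RPKM in those of *Dio3-/-* fetuses, all 10 were higher, from 0.95 to 3.01 on the log2 scale, and 0 passed the test by limma, with a median CV of 1.04 among *Dio3-/-* hearts. All 10 were below an unadjusted *P* value of 0.05 by limma, beside 19.7% of all genes tested in either direction. No liver marker was at 0 in either genotype. The fetal liver also expresses *Gata4* and *Gata6*. Of 8 red cell markers, 7 were found, and their summed means were 47117 RPKM and 16296 RPKM. All 7 were lower, from −1.55 to −0.80 on the log2 scale, and 1 (*Hbb-bh1*) passed by limma, beside 0.382% lower of all genes tested. All 7 were below an unadjusted *P* value of 0.05 by limma, beside the same 19.7%. The markers of a list were measured in the same hearts, so the counts of both lists are not counts of independent genes. Lung epithelium and autonomic markers were sparse, with *Sftpc* and *Cldn18* listed at 0 in *Dio3+/+* hearts and no autonomic marker at 0, and 1 gene of each list could be tested. The range of these sums over single hearts is not part of the table, and the part of these cells in the values of the 10 genes was not tested.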

How the data were processed

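Total RNA of 8 fetal hearts, 4 per genotype, was sequenced after removal of ribosomal RNA. The authors aligned reads with NovoAlign (version 2.08, per the labels), kept uniquely mapping reads and multiplied the coverage of each sample so that all matched the smallest read total. The reference genome build is not given in the sources used here, so no gene coordinates come from the table. The authors deposited, for each transcript row, a mean per genotype, taken as RPKM because the study filters on that unit. The authors also deposited the coefficient of variation of each genotype, which is a ratio, SD over mean. Further columns hold the authors' fold change and *q* value and were not used. Values of single hearts and read totals are not part of the table, and the depth behind a value is therefore unknown. The design assumed values for each heart where the file had them. The summaries were used in their place.

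Means were put on the scale log2(RPKM + 0.5), and the SD from the deposited ratio was carried to that scale to first order. Pooled over genotypes with 6 residual degrees of freedom, the variances were moderated in limma (version 3.58.1, in R version 4.3.3) along a trend with the mean, for 3.52 further prior degrees of freedom. The test was two-sided, with Benjamini-Hochberg adjustment across the 32703 rows whose mean exceeded 1 RPKM in either genotype. A gene was read from its row with the largest average of the genotype means. Each 95% interval is for 1 row and is not adjusted for the number of rows. The calculation was tested on simulated data with independent rows and the same spread in both genotypes. The deposited rows differ from that setting in both respects, so the simulation does not cover it. Limits for single hearts use the rule that none of 4 values can lie more than 1.5 SD from their mean, widened by the rounding error of 0.005. Python (version 3.11.15) with pandas (version 2.3.3) and numpy (version 2.4.6) was used for summaries.

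The members, the gene lists and the tests were chosen with earlier results of these data known. Genes named from the lists of relatives, cooperating factors, cofactors and targets are those with an adjusted *P* value under 0.05 (at most 8 per list) and, besides these, the 3 with the highest mean. Of the genes this rule names, 1 is not reported here. Other genes are named as chosen after their values were seen. Promoter sequences came from RefSeq and were matched by symbol. Alternatives were other pseudocounts (0.1 and 1), other filters (none, or a mean above 5 RPKM), no trend, 1 row per gene, Welch's test from the summaries, centring on the median log2 ratio, a larger coefficient of variation, dropping rows whose coefficient of variation exceeded 0.5, and the second-highest row of a gene.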

Additional observations from a re-analysis of the deposited data

How the results depend on the processing

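No paired analysis was possible because the deposited table holds means and coefficients of variation over the 4 hearts of each genotype, and no column of a single heart. For the same reason, leaving out each heart in turn and leaving out *Dio3-/-* hearts 3 and 4, whose age field differs, were planned and not run. Of the 10 core cardiac factors, 0 passed the threshold under each of the 11 alternatives that were run (9 to 11 gave a value for each gene), and the log2 fold change of none changed sign. The count of called cooperating factors went from 0 to 1 (*Myocd*, adjusted *P* = 0.04999 by limma) when rows with a coefficient of variation above 0.5 were left out. The count of called cofactors went from 2 to 1 without the mean-variance trend, to 1 with centring on the median log2 ratio, to 1 with the coefficients of variation raised by 0.005, and to 0 with Welch's test from the summaries. It was 1 with the second-highest row of the gene, where 16 of the 20 cofactors could be tested, *Smarcd3* not among them. Welch's test also lowered the count of called targets from 6 to 2. It called 26 genes in all, where limma called 336, and the other alternatives called between 158 and 495. The rounding of the coefficients of variation to 2 decimals limits the precision of genes with a small spread.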

Other observations

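Some genes of the lists outside the rule for named genes were chosen after their values were seen. *Heyl*, a Notch-responsive repressor, had 4.45 RPKM (CV 0.08) in hearts of *Dio3+/+* fetuses and 5.58 RPKM (CV 0.07) in those of *Dio3-/-* fetuses, with a log2 difference of 0.30 (adjusted *P* = 0.069 by limma), and did not pass the threshold. *Nkx2-1*, the lung and thyroid relative of *Nkx2-5*, had 8.18 RPKM (CV 0.16) and 8.35 RPKM (CV 0.20), while *Sftpc*, a surfactant gene of lung epithelium, was listed at 0 and 0.26 RPKM. Reads from overlapping or antisense transcripts cannot be told apart where counting by strand is not stated.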
